A study of Mus musculus with 4 samples.

Results

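The genes described here encode proteins that release, recover and buffer the calcium of the sarcoplasmic reticulum, the calcium store of the heart muscle cell. They were taken by name, with 10 symbols matched by mouse Entrez Gene number among the 24454 genes of the count table, and all 10 were found and passed the filter on low counts. RNA-seq was performed on hearts of mice at P7, with 2 Ctrl libraries (labelled WH7 and WH8) and 2 miR-128OE libraries (WH9 and WH10). Per the study's methods, the mice were kept on a C57BL/6 background, and Ctrl mice carried the *miR-128*TetRE allele alone, a Tet-responsive *miR-128* cassette in the Rosa26 locus. The miR-128OE mice carried this allele together with *α-MHC*-tTA, a transactivator driven by a cardiomyocyte (CM) promoter, and they express *miR-128* in CMs when doxycycline is withdrawn. The doxycycline schedule of these hearts is not stated in the sources used here, nor is whether a library came from 1 heart or a pool. The tTA driver was present in the miR-128OE mice alone, so its effects and those of *miR-128* cannot be told apart. The question was how each calcium handling gene differed between miR-128OE and Ctrl hearts.

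With each heartbeat, calcium entering through the cell membrane opens the ryanodine receptor of the sarcoplasmic reticulum, and the released calcium drives contraction. A calcium pump then returns it to the store, where calsequestrin and other proteins bind it, and an exchanger in the cell membrane carries the rest outward. In the newborn mouse heart this store is still maturing, and its share in the calcium of each beat grows after birth.

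The overexpressed miRNA is shown first, because its seed defines which of these transcripts hold a match. The mature sequence is from RefSeq (GRCm38.p6), with the seed, bases 2 to 8, in capitals.
miR-128-3p: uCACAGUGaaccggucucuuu
On the transcript strand, the longest 3′UTR that GENCODE M21 (GRCm38) annotates for a gene was searched for matches, as CACTGTG (7mer-m8) or ACTGTGA (7mer-A1), and the overlap of both is an 8mer. Of the 10 genes, 7 held no match in this window (*Casq1*, *Casq2*, *Ryr2*, *Trdn*, *Atp2a2*, *Pln* and *Camk2d*), and 3 held 8 matches in all. Among the 13494 tested genes with an annotated 3′UTR, 31.0% held at least 1 match. *Hrc* held 1 match (chr7:45338793-45338800, + strand, in exon 3), *Jph2* held 1 (chr2:163337131-163337137, − strand, in exon 6), and *Slc8a1* held 6 in an annotated 3′UTR of 15586 nucleotides in exon 8. The matches of *Hrc* and *Jph2* and the 3 7mer-m8 matches of *Slc8a1* (chr17:81377330-81377336, chr17:81376033-81376039 and chr17:81373576-81373582, − strand) are printed with their flanks, with the match in capitals, to be read beside the fold changes of these genes.
Hrc: gggttgaccCACTGTGAgttaaagag
Jph2: gctacagctACTGTGAtatcctaag
Slc8a1, first 7mer-m8 site: taggctcctCACTGTGggttttaac
Slc8a1, next site: cagtccatgCACTGTGctatttgct
Slc8a1, last site: gtttatgatCACTGTGcattttgtt

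Library totals ranged from 8096870 to 14359838 counts. *Xist* had 11339 to 14543 counts in Ctrl and 94 to 132 in miR-128OE libraries, and *Ddx3y* had 7 to 13 against 1442 to 1768, so sex and condition cannot be told apart. Of 8 CM markers, 3 were higher and 1 was lower, and their summed level was 51091 to 54961 CPM (counts scaled to a common total per library) in Ctrl and 58132 to 58844 in miR-128OE libraries. In bulk tissue, a change in the number of cells of a type and a change in their RNA per cell cannot be told apart. The Ctrl libraries differed in atrial markers, with a summed 6118 CPM in WH7 and 722 in WH8, against 2017 to 2642 in miR-128OE libraries, and 0 of these 5 passed the test. Brown fat markers summed to 35.4 CPM in both Ctrl libraries and to 54.0 to 69.5 in miR-128OE libraries, with 3 of 5 higher. The single genes were less even in Ctrl. *Ucp1* had 56 counts in WH7 and 3 in WH8, against 253 in WH9 and 189 in WH10. *Cidea* had 336 and 250 in Ctrl, against 536 and 485. For fibroblast, endothelial, smooth muscle and pericyte, macrophage and conduction markers, 1 of 7, 2 of 6, 2 of 6, 0 of 5 and 0 of 3 tested genes were higher, and 0, 1, 1, 0 and 1 were lower. The shares of all tested genes to set beside these marker counts were 16.5% higher and 15.0% lower.

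Tested with edgeR (quasi-likelihood, with p-values adjusted by Benjamini-Hochberg over all 14266 tested genes), 6 of the 10 genes were higher in miR-128OE hearts, against 16.5% of all genes. These were *Casq1*, *Casq2*, *Hrc*, *Atp2a2*, *Pln* and *Jph2*. The release channel *Ryr2* and its anchor *Trdn* were lower, 2 of 10, against 15.0% of all genes. *Camk2d* and *Slc8a1* did not pass the threshold of 0.05. The libraries of both groups did not overlap for 9 of the 10 genes, against 68.1% of all genes tested. The median log2 fold change was 0.54 for the 10 genes and −0.01 for all genes tested. The 10 genes were chosen with earlier results of these data known, so these shares and medians are description and no independent support. A scaling to the 8 CM markers, chosen after seeing the data, shifted the median of all genes to −0.29 (log2). Under this scaling *Casq1*, *Hrc* and *Jph2* were still higher. The call was lost by *Casq2* (0.25, adjusted p = 0.114), *Atp2a2* (0.27, adjusted p = 0.153) and *Pln* (0.33, adjusted p = 0.0941). The share of all genes called under this scaling is not given here. Values are given as normalized counts, which are read counts brought to a common library size with TMM factors (trimmed mean of M values).

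**Figure D1:**
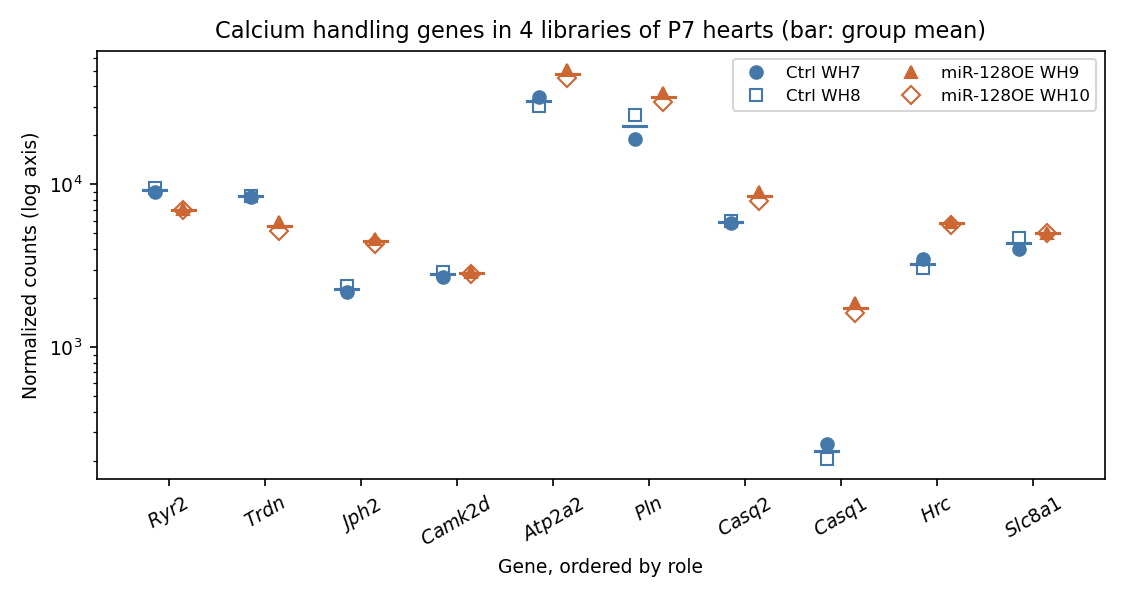
Normalized counts (log axis) of the 10 calcium handling genes in each of the 4 libraries, with Ctrl in blue, miR-128OE in orange and a bar at each group mean. *Casq1* rises from a mean of 230 to 1744, *Ryr2* and *Trdn* sit lower in both miR-128OE libraries, and the points of *Camk2d* overlap.

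The calcium buffers among the 10 genes rose, and the skeletal calsequestrin rose most of the 10. *Casq1* (Entrez Gene 12372, chr1:172209894-172219868, − strand) encodes the calsequestrin that predominates in skeletal muscle. It had 254 and 205 normalized counts in Ctrl and 1870 and 1617 in miR-128OE libraries, with raw counts of 278, 145, 1889 and 1923. Both miR-128OE libraries lay far above both Ctrl libraries. The mean rose 7.60-fold, from 230 ± 34.9 (SD, n = 2) to 1744 ± 179 (SD, n = 2), and the log2 fold change was 2.91 ± 0.12 (SE, adjusted p = 1.58e-06). By log2 fold change it ranked 31 from the top among all tested genes. It passed the threshold in each of 14 alternatives, with log2 fold changes of 2.62 to 3.09, and also when tested against a change of 1.5-fold (adjusted p = 3.26e-06).

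*Casq2* (chr3:102086415-102146514, + strand), the cardiac calsequestrin that binds most of the calcium in the store, had 5769 and 5986 normalized counts in Ctrl and 9024 and 7912 in miR-128OE libraries. The groups did not overlap, and the log2 fold change was 0.53 ± 0.09 (SE, adjusted p = 0.00294). Without WH9 the call was lost (0.44, adjusted p = 0.0659). *Hrc* (chr7:45335290-45338974, + strand), the histidine-rich calcium binding protein, which also binds triadin, had 3473 and 3059 in Ctrl and 5908 and 5635 in miR-128OE libraries. It rose by a log2 fold change of 0.82 ± 0.09 (SE, adjusted p = 0.000288). Its 8mer match is printed above, and targeting by *miR-128* was not tested. All 3 buffers were higher, by unequal amounts.

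The change of *Casq1* against *Casq2* was read as a ratio within each library, on the scale of counts per kilobase of exon, which needs no scaling between libraries. The *Casq1* level was 6.18% and 4.80% of the *Casq2* level in the Ctrl libraries WH7 and WH8. It was 29.1% and 28.7% in the miR-128OE libraries WH9 and WH10. The mean log2 ratio was −4.20 ± 0.26 (SD, n = 2) for Ctrl. For miR-128OE libraries it was −1.79 ± 0.014 (SD, n = 2), 5.30-fold higher, a difference well beyond the spread between replicates. *Casq2* remained the more abundant calsequestrin in every library. With 2 libraries against 2, a two-sided exact permutation test cannot go below p = 0.333, which is the value it gave (0.444 after adjustment over the 4 ratios compared). The longest run of bases shared by protein-coding transcripts of *Casq1* and *Casq2* was 25 nucleotides. A noncoding gene on the opposite strand, *Gm17224*, overlaps 156 exonic bases of *Casq1*, and without a stated strand setting its reads could be counted with *Casq1*.

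*Casq1* was then set beside other genes of the skeletal muscle program. The skeletal muscle marker list summed to 9.51 to 19.3 CPM in Ctrl and 10.2 to 12.1 in miR-128OE libraries. Of its 12 genes, 4 passed the filter, 0 were higher and *Tnni2* was lower. *Myod1* had 0 counts in every library, and the fast myosins *Myh1*, *Myh2* and *Myh4* had at most 4 counts in any library. For the skeletal pump *Atp2a1*, 27 counts were found in each Ctrl library, and 10 and 22 in miR-128OE libraries (log2 fold change −1.08, adjusted p = 0.0834). The skeletal release channel *Ryr1* had at most 5 counts in any library. Raw counts of the skeletal pump inhibitor *Mrln* were higher, at 17 (WH9) and 11 (WH10) against 5 (WH7) and 3 (WH8). Those of *Slc8a3*, an exchanger of skeletal muscle and brain, reached 15 in WH9, with 7 in both WH10 and WH7 and 4 in WH8. *Mrln* and *Slc8a3* were too low for the test. *Jph1*, the junctophilin that predominates in skeletal muscle, rose by a log2 fold change of 0.80 ± 0.22 (SE, adjusted p = 0.0217), from 121 and 56 counts in Ctrl to 198 and 170, and lost the call without WH9.

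**Figure D2:**
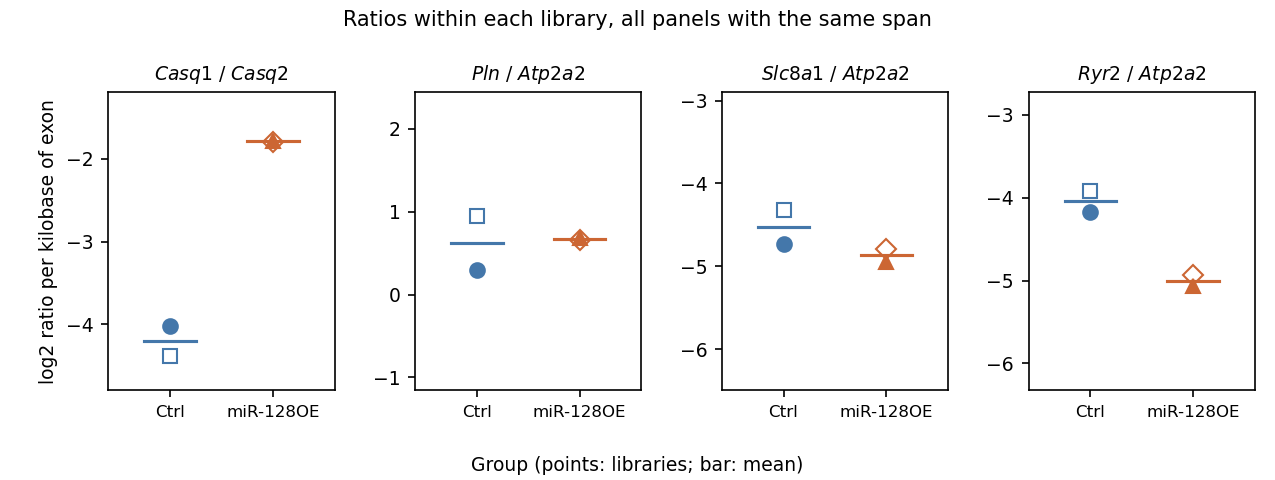
Log2 ratios of counts per kilobase of exon within each library, for *Casq1* to *Casq2*, *Pln* to *Atp2a2*, *Slc8a1* to *Atp2a2* and *Ryr2* to *Atp2a2*, with a bar at each group mean and panels of equal span. The *Casq1* to *Casq2* ratio shifts by 2.41, the *Ryr2* to *Atp2a2* ratio is lower in both miR-128OE libraries, and the *Pln* to *Atp2a2* ratio overlaps between the groups.

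The pump and its inhibitor rose by similar fitted amounts. *Atp2a2* (chr5:122453513-122502225, − strand) encodes SERCA2, the pump that returns calcium to the store. It had 34295 and 30486 normalized counts in Ctrl and 50258 and 44885 in miR-128OE libraries, with no overlap. Its log2 fold change was 0.55 ± 0.10 (SE, adjusted p = 0.00355), and without WH9 the call was lost (0.48, adjusted p = 0.0733). *Pln* (chr10:53337667-53345987, + strand) encodes phospholamban, which restrains SERCA2 until it is phosphorylated. It had 19042 and 26611 in Ctrl and 36514 and 32161 in miR-128OE libraries, so the Ctrl libraries stood apart by more than the miR-128OE libraries did. The log2 fold change of *Pln* was 0.59 ± 0.15 (SE, adjusted p = 0.0143). It was 0.37 without WH7 and 0.85 without WH8, and the call was lost without WH9 (0.51, adjusted p = 0.121) and in DESeq2's test (0.59, adjusted p = 0.078). The Ctrl library with the lower *Pln* was the one with the higher atrial markers, and the part of atrial tissue in this spread was not tested. Exons of *Pln* overlap *Gm47644* over 1644 bases and *Cep85l* over 141 bases on the opposite strand, and *Cep85l* itself had 161 to 270 counts.

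Per kilobase of exon, *Pln* stood at 122% and 192% of the *Atp2a2* level in Ctrl and at 160% and 158% in miR-128OE libraries. The groups overlapped, and the log2 ratio differed by 0.05, within its spread between replicates (exact permutation p = 1). Without WH7 the difference was −0.27.

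The genes of the release unit moved in opposite directions. *Ryr2* (chr13:11553102-12106945, − strand), the cardiac ryanodine receptor, had 9023 and 9523 normalized counts in Ctrl and 7080 and 6932 in miR-128OE libraries. *Trdn* (chr10:33080554-33476709, + strand), triadin, which ties calsequestrin to the receptor, had 8389 and 8542 in Ctrl and 5880 and 5189 in miR-128OE libraries. For both genes, each miR-128OE library lay below each Ctrl library. The mean of *Ryr2* was lower by 24.4% (log2 fold change −0.40 ± 0.08 SE, adjusted p = 0.00655) and that of *Trdn* by 34.6% (−0.61 ± 0.09 SE, adjusted p = 0.00128). The call of *Trdn* was kept in each of 14 alternatives, with log2 fold changes of −0.89 to −0.51. The call of *Ryr2* was lost without WH9 (−0.41, adjusted p = 0.0997), without WH10 (−0.37, adjusted p = 0.104) and with an offset for GC content and length (−0.19, adjusted p = 0.122).

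*Jph2* (chr2:163336242-163397993, − strand) encodes junctophilin 2, which holds the store against the cell membrane where release takes place. It had 2185 and 2369 normalized counts in Ctrl and 4600 and 4326 in miR-128OE libraries, with a mean 1.96-fold higher. The groups were well apart, and the log2 fold change was 0.97 ± 0.08 (SE, adjusted p = 9.07e-05). Against a change of 1.5-fold, *Jph2* and *Casq1* alone among the 10 genes passed, with an adjusted p of 0.00716 for *Jph2*. The share of all genes that passed this test is not given here. The 7mer-A1 match of *Jph2* is printed above, and targeting by *miR-128* was not tested.

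*Camk2d* (chr3:126596302-126846326, + strand) encodes the main calcium/calmodulin-dependent kinase of the heart, which phosphorylates phospholamban and the ryanodine receptor. It had 2719 and 2899 normalized counts in Ctrl and 2909 and 2837 in miR-128OE libraries, and the groups overlapped. The log2 fold change was 0.03 (95% interval −0.14 to 0.21, adjusted p = 0.78), and its sign turned with total counts (−0.066), upper-quartile factors (−0.012), a scaling to CM markers (−0.24) and without WH7 (−0.013).

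*Slc8a1* (chr17:81373105-81738377, − strand) encodes the sodium-calcium exchanger, the main route of calcium out of the CM. It had 4011 and 4704 normalized counts in Ctrl and 5028 and 5029 in miR-128OE libraries. The groups did not overlap, but the difference missed the threshold, with a log2 fold change of 0.21 ± 0.09 (SE, 95% interval −0.0049 to 0.42, adjusted p = 0.124). It passed with the offset for GC content and length (0.40, adjusted p = 0.0114) and without WH8 (0.33, adjusted p = 0.00506). Without WH7 it was 0.097 (adjusted p = 0.36), and scaled to CM markers −0.064. The level of *Slc8a1* per kilobase was 3.78% and 4.99% of *Atp2a2* in Ctrl and 3.23% and 3.62% in miR-128OE libraries, a log2 difference of −0.34 (exact permutation p = 0.333). That difference was −0.54 without WH7 and −0.14 without WH8. The level of *Ryr2* per kilobase was 5.56% and 6.60% of *Atp2a2* in Ctrl and 2.98% and 3.26% in miR-128OE libraries, a log2 difference of −0.96 (exact permutation p = 0.333). The last difference was larger than the pooled SD of 0.14 between replicates.

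**Figure D3:**
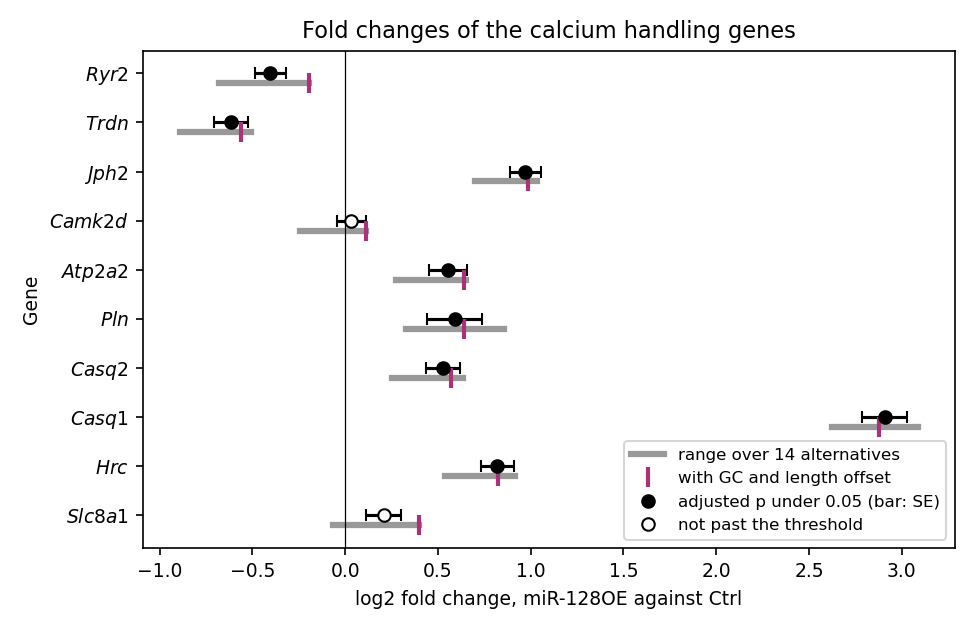
Log2 fold change of each gene in miR-128OE against Ctrl hearts with its standard error (filled points passed an adjusted p of 0.05), above a gray bar for the range over 14 alternatives and a tick for the fit with an offset for GC content and length. *Casq1* stands apart at 2.91, *Ryr2* and *Trdn* lie below 0, and the gray bars of *Camk2d* and *Slc8a1* cross 0.

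Transcript length moved with fold change in these libraries. The median log2 fold change was 0.10 for 3571 tested genes with a longest transcript of up to 2 kb and −0.14 for 782 genes above 8 kb. *Casq1* (1.85 kb) belongs to the former, and *Ryr2* (16.8 kb) and *Slc8a1* (18.5 kb) to the latter. With the offset for GC content and length, the log2 fold change of *Ryr2* went from −0.40 to −0.19 and lost the call, and that of *Slc8a1* went from 0.21 to 0.40 and gained it. For *Trdn* (4.51 kb), *Jph2* (4.21 kb) and *Atp2a2* (4.49 kb) it was −0.56, 0.98 and 0.64. The part of length in these differences was not tested further.

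The levels were ordered on the scale of TMM-scaled CPM per kilobase of exon. In Ctrl hearts *Pln* (702 ± 165, SD, n = 2) was highest, followed by *Atp2a2* (452), *Casq2* (182), *Hrc* (108), *Trdn* (76.8), *Jph2* (45.4), *Ryr2* (27.3), *Slc8a1* (19.7), *Camk2d* (10.6) and *Casq1* (9.99 ± 1.52, SD, n = 2). Neighbors in this order did not overlap between libraries, other than *Camk2d* and *Casq1*. In miR-128OE hearts *Casq1*, at 75.9 ± 7.78 (SD, n = 2), had moved from the last place to place 6, between *Jph2* (89.0) and *Trdn* (50.2), and *Ryr2* (20.7) had moved from place 7 to place 9. The places between the first 3 and the last depend on which exons are counted, since the union of exons is 28.8 kb for *Ryr2* and 22.5 kb for *Camk2d*. With the longest transcript as the length, 4 of the 10 genes kept their place in Ctrl hearts, and *Trdn* (159 CPM per kilobase) stood above *Hrc* (115) there, and *Casq1* was at place 7 in miR-128OE hearts.

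Other genes of the pathway were read from a list of 58, of which 54 were tested, and 16 were higher and 6 lower, against 16.5% and 15.0% of all genes. The share of lower genes was near or below that of all genes. With total counts, which shifted the median of all genes to −0.11, 10 were lower. The median log2 fold change of the 54 tested genes was 0.18. This list too was chosen with earlier results of these data known, so its counts are description only. Without WH9, 8 were higher and 1 lower, without WH10, 12 and 3, and without WH7, 26 were higher. Of the 22 called genes, 9 kept the call with each library left out, and the other 13 lost it at least without WH9. Scaled to CM markers, which shifted the median of all genes to −0.29 (log2), 7 were higher and 15 lower. The shares of all genes called with a library left out or under this scaling are not given here. Under this scaling the call was lost by *Asph* (0.20, adjusted p = 0.14), *Tmem38b* (0.36), *Jph1* (0.52), *Fkbp1a* (−0.0032), *Calu* (0.038), *Stim2* (0.062), *Ppp1ca* (0.089), *Ppp1cb* (0.13) and *Ppp1r2* (0.11).

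Among the partners of release, 5 of 15 genes were higher and 1 was lower, against 16.5% and 15.0% of all genes. *Tmem38a*, a potassium channel of the store that balances charge during release, rose by a log2 fold change of 1.15 ± 0.10 (SE, adjusted p = 0.000119), and its relative *Tmem38b* by 0.64. *Asph*, whose locus also encodes junctin, a partner of triadin, rose by 0.47. *Fkbp1a*, which binds the ryanodine receptor, rose by 0.28 (−0.0032 when scaled to CM markers), and *Jph1* is given above. *Tmem38b* lost the call without WH9. *Fkbp1a* lost it without WH9 or WH10, with total counts, with upper-quartile factors and with the offset for GC content and length. *Itpr2*, an inositol trisphosphate receptor, which also releases calcium from the store, fell by 0.51 on the log2 scale. The other 9 genes of this list, with the calmodulins among them, had log2 fold changes of −0.35 to 0.78.

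For uptake, *S100a1*, a calcium sensor that binds SERCA2 and the ryanodine receptor, rose by a log2 fold change of 0.83 ± 0.08 (SE, adjusted p = 0.000124), the 1 gene called among 5, near the 16.5% of all genes. For *Sln*, sarcolipin, a pump inhibitor of the atria, the Ctrl libraries held 2622 and 201 counts and the miR-128OE libraries 1580 and 1964. It followed the other atrial genes in being high in WH7 and low in WH8, and its log2 fold change was 0.23 (adjusted p = 0.806).

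In the lumen of the store, *Srl*, sarcalumenin, a calcium binding protein of the sarcoplasmic reticulum, rose by 0.93 ± 0.09 (SE, adjusted p = 0.000149), and *Calu* by 0.32. *Calr* and *Hspa5*, calcium binding chaperones of the general endoplasmic reticulum, fell by 0.51 and 0.40 on the log2 scale. Among these, *Srl* kept the call with each library left out, whereas *Calu*, *Calr* and *Hspa5* lost it without WH9 and without WH10, and *Calu* also without WH8.

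For extrusion and entry, 1 of 11 genes was higher and 2 were lower, near or below the 16.5% and 15.0% of all genes. *Atp2b4*, a calcium pump of the cell membrane, fell by 0.53 on the log2 scale and lost the call without WH9. The low-count gene *Atp2b3* also fell, with 14 and 8 counts in Ctrl libraries against 2 and 4 (adjusted p = 0.0258), and lost the call without WH8, WH9 or WH10. The counts give a ratio of 0.223 with a counting interval of 0.0741 to 0.568 (exact, 95%). *Stim2*, a sensor of calcium in the store, rose by 0.34 and lost the call without WH9 and without WH10.

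Of the kinases and phosphatases, 5 of 10 were higher and 0 were lower, against 16.5% and 15.0% of all genes in the main fit. Scaled to CM markers, 2 of 10 (*Prkaca* and *Ppp1r3a*) were higher, and the share of all genes under this scaling is not given here. *Prkaca*, the catalytic subunit of protein kinase A, which phosphorylates phospholamban, rose by a log2 fold change of 0.71 ± 0.08 (SE, adjusted p = 0.000375). The phosphatase genes *Ppp1ca* and *Ppp1cb*, which encode catalytic subunits that reverse this step, rose by 0.37 and 0.41. *Ppp1r3a*, a targeting subunit of the same phosphatase in muscle, rose by 0.75 and *Ppp1r2*, an inhibitory subunit, by 0.39. *Ppp1ca*, *Ppp1cb* and *Ppp1r2* lost the call without WH9, and *Ppp1r2* also without WH10 (0.39, adjusted p = 0.0561). The other kinase genes *Camk2a* (−0.25), *Camk2b* (0.37) and *Camk2g* (−0.25) did not pass the threshold.

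At the dyad and the T-tubule, the sites where the cell membrane meets the store, *Cav3*, the caveolin of muscle, rose by 0.85 and *Cmya5* by 0.75. *Speg*, a kinase of the junction, fell by 0.56 on the log2 scale and lost the call without WH9. *Bin1*, a membrane-bending protein of T-tubules, differed by −0.10 on the log2 scale (adjusted p = 0.505).

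**Figure D4:**
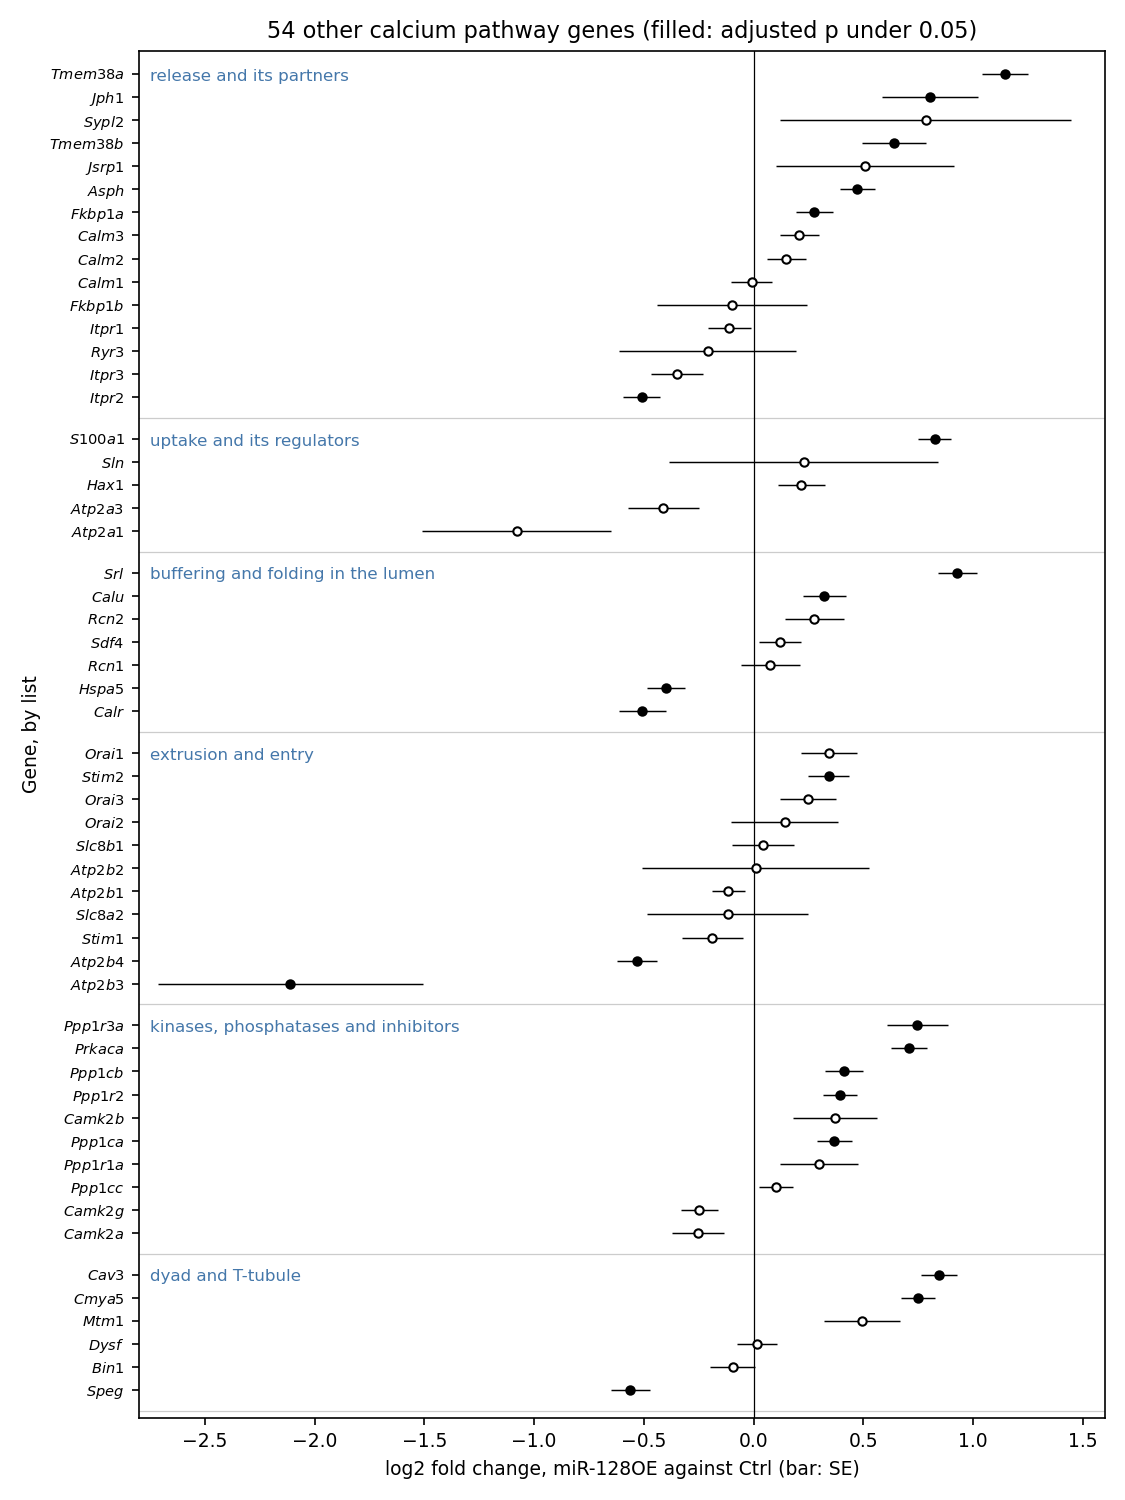
Log2 fold change in miR-128OE against Ctrl hearts for 54 other genes of the calcium pathway by list, with standard errors and filled points for an adjusted p under 0.05. *Tmem38a* (1.15), *Srl* (0.93) and *Cav3* (0.85) lie to the right, and *Itpr2* (−0.51), *Speg* (−0.56) and the low-count gene *Atp2b3* to the left.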

How the data were processed

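The authors filtered reads on quality, aligned them to mm10 (GRCm38) with TopHat2 and counted those on known genes. They deposited raw counts per gene for 4 libraries. Gene models, strand and the rule for shared reads are not given in the sources used here. Of 24454 gene identifiers, 24374 were matched to a symbol in RefSeq GRCm38.p6.

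The counts were compared with edgeR 4.0.16 in R 4.3.3, the package that the study's methods name. The settings were chosen here, with filterByExpr (minimum count 10, total 15), TMM factors, the two-sided quasi-likelihood test and Benjamini-Hochberg adjustment over 14266 genes (library totals 8096870 to 14359838) at a threshold of 0.05. Standard errors (SE) were taken from the fold change and the square root of F. Replicates are separate libraries, and the spread between them may be technical. The test combines each gene's spread between libraries with that of all genes, so p-values and SE rest in part on other genes. Counting intervals cover counting error alone.

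The fit was also run on simulated counts, with levels and spread taken from these data. Simulated log2 changes of 0.5, 1 and 2 were recovered in 41.8%, 92.3% and 97.0% of the changed genes. Exon lengths and 3′UTRs came from GENCODE M21. Ratios used raw counts per kilobase and exact permutation tests (Python 3.11.15, scipy 1.17.1).

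The members and lists were chosen with earlier results of these data known. All 10 members are named, with each list gene past the threshold and others by range; *Casq1*'s skeletal neighbors, *Sln*, *Camk2a*, *Camk2b*, *Camk2g* and *Bin1* were named after their values were seen. Alternatives were other scalings, filters and tests (DESeq2 1.42.0 among them), a loess offset for GC content and length (span 0.5), and each library left out. A scaling to 8 CM markers was chosen after seeing the data.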

Additional observations from a re-analysis of the deposited data

How the results depend on the processing

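The 6 higher and 2 lower calcium handling genes were counted again under each setting. The shares of all genes called under settings other than the main fit are not given here. The counts below therefore cannot be set beside all genes. Against a change of 1.5-fold, 2 were higher and 0 lower, and 4 and 0 of the pathway genes in place of 16 and 6. Scaled to CM markers, which shifted the all-gene median to −0.29 (log2), 3 members were higher, and 7 pathway genes were higher and 15 lower. With total counts, which shifted it to −0.11, 10 pathway genes were lower, and with the GC and length offset 1 member was lower. With each library left out, 3 to 7 members were higher and 1 to 2 lower, and 8 to 26 pathway genes were higher and 1 to 8 lower. By ratio, leaving out libraries gave 2.22 to 2.59 for *Casq1* to *Casq2*, −0.27 to 0.38 for *Pln* to *Atp2a2*, −0.54 to −0.14 for *Slc8a1* to *Atp2a2* and −1.08 to −0.83 for *Ryr2* to *Atp2a2*. With the longest transcript, 4 of 10 places were kept. Signs turned for *Camk2d* with upper-quartile factors (−0.012), total counts (−0.066), CM scaling (−0.24) and without WH7 (−0.013 to 0.083 over left-out libraries), and with CM scaling for *Slc8a1* (−0.064) and *Fkbp1a* (−0.0032). Scaled to CM markers, *Casq2* (0.25), *Atp2a2* (0.27) and *Pln* (0.33) lost the call. Of 446 single-gene alternatives, 389 kept direction and side of the threshold. *Atp2b3* gave no value without WH7 or at 1 CPM in 2 libraries, where it was filtered out. Where not given by the setting itself, the cause was not tested. No paired analysis was possible because the labels give no replicate numbers shared by the groups. With 2 libraries a group and 8096870 counts in the shallowest, small differences may not be detectable.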

Other observations

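Some genes of the calcium pathway were too low for the test. *Mrln* encodes myoregulin, a pump inhibitor of skeletal muscle, and its counts were 5 and 3 in Ctrl libraries against 17 and 11 in miR-128OE libraries. For *Slc8a3*, an exchanger of skeletal muscle and brain, the Ctrl libraries held 7 and 4 counts and the miR-128OE libraries 15 and 7. *Ryr1* counts were 4 and 2 in Ctrl libraries against 0 and 5. *Strit1*, also on the list, was not found among the gene symbols matched to the count table, so it has no counts here.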
